A study of Caenorhabditis elegans with 2 samples.

Results

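Among the regions recovered with SMA-3, those at small nucleolar RNA (snoRNA) and small nuclear RNA (snRNA) genes numbered 253 of 30000 pooled regions (0.843%). They were chosen by position alone, as regions whose summit lay within 150 bp of a gene annotated as snoRNA or snRNA. Of these, 179 lay nearest a snoRNA gene and 74 nearest a snRNA gene. SMA-3 is a Smad transcription factor that the receptors of a BMP-like pathway activate in worms, and it was immunoprecipitated with an anti-GFP antibody from whole Caenorhabditis elegans hermaphrodites. The animals were L2 larvae of strain CS152, 24 hours after release from L1 starvation, with the transgene qcIs[gfp::sma-3+rol-6] in the sma-3(wk30) mutant background. The series holds 2 biological replicates of this 1 group, and each was called against the same control alignment. The only SMA-3 followed was the GFP fusion made from the transgene. The labels describe the tag both as gfp::sma-3 and as a C-terminal GFP-FLAG tag, and the tissue that a region came from cannot be told in whole animals. No immunoprecipitate of untagged animals was analysed here, so recovery of these regions without SMA-3 was not tested. Every value below is a description, and no test was made.

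As background, snoRNAs guide the chemical modification of ribosomal RNA in the nucleolus, C/D box snoRNAs its methylation and H/ACA box snoRNAs its pseudouridylation. Spliceosomal snRNAs form the core of the splicing machinery, and in nematodes the spliced leader RNAs SL1 and SL2, from the sls-1 and sls-2 genes, donate the leader that is joined to many messenger RNAs. Many snoRNAs lie in introns of protein-coding host genes and can be processed from the host transcript, whereas others, like snRNAs, are transcribed from a promoter of their own just before the gene.

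The upstream sequences of the genes with the highest peaks on chromosomes II to V and X are shown because the summits fell within them. Each runs from 80 bases before the annotated 5′ end to the first 10 bases of the gene, on the gene's strand (RefSeq sequence, ce11). The snRNA genes are the 6 with the highest peaks there, and F54D8.7 as a lower example with TATATAA: sls-2.1 at chrII:5844785-5844874 (plus strand), sls-2.2 at chrII:5543518-5543607 (plus strand), sls-2.8 at chrIII:12250385-12250474 (plus strand), sup-6 at chrII:12944958-12945047 (minus strand), R07E5.16 at chrIII:10989599-10989688 (plus strand), T11F9.15 at chrV:11980038-11980127 (plus strand) and F54D8.7 at chrIII:5080889-5080978 (minus strand). Capitals mark the words AACCCG and TGTCNG, where N is any base, and TATATAA. The words TGTCNG and AACCCG were picked after the sequences had been seen, and sls-2.2 has neither.
sls-2.1: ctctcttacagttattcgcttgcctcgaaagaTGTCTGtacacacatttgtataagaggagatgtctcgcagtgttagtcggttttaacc
sls-2.2: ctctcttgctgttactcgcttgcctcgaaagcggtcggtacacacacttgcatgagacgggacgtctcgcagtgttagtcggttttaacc
sls-2.8: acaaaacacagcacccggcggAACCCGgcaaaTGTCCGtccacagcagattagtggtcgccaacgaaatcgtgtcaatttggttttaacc
sup-6: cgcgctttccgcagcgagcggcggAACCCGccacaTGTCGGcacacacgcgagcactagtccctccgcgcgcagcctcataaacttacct
R07E5.16: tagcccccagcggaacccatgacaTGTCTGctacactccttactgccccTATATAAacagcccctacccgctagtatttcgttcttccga
T11F9.15: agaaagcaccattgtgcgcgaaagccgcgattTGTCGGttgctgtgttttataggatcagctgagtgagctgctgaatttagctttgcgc
F54D8.7: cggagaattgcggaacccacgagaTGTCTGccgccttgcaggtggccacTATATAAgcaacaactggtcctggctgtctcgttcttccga

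Of the 5 snoRNA genes with the highest peaks on these chromosomes, all had TGTCNG, and AACCCG was absent in T26A8.6 and C08D8.3. In Y53F4B.47 both marked words stood farther from the gene than in the others that have them. A second AACCCG, left unmarked, spans the 5′ end of Y53F4B.47. The genes are Y53F4B.47 at chrII:15025884-15025973 (minus strand), F01D5.12 at chrII:14018432-14018521 (minus strand), T26A8.6 at chrIV:8428730-8428819 (minus strand), C08D8.3 at chrV:8349028-8349117 (plus strand) and C16D9.11 at chrV:8228960-8229049 (minus strand).
Y53F4B.47: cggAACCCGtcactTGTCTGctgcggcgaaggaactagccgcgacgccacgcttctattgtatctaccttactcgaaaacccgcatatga
F01D5.12: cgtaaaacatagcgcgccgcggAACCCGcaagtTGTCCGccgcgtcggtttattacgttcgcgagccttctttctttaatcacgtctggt
T26A8.6: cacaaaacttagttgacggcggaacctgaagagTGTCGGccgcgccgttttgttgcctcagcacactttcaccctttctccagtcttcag
C08D8.3: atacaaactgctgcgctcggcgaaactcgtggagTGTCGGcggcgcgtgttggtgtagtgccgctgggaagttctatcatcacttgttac
C16D9.11: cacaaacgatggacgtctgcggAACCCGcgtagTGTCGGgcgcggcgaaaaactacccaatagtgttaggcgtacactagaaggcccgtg

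Other snoRNA genes with a peak carried the letters GTTCGANNC (capitals) close to the gene. These letters match the B box, the internal promoter element of tRNA genes that RNA polymerase III factors bind. Examples are F55A11.10 at chrV:11782912-11783001 (plus strand), M106.6 at chrII:10840237-10840326 (plus strand) and F30H5.4 at chrIII:502724-502813 (plus strand).
F55A11.10: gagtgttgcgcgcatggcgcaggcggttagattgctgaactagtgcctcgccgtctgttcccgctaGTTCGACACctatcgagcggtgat
M106.6: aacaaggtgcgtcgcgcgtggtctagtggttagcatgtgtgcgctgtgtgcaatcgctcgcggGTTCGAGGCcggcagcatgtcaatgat
F30H5.4: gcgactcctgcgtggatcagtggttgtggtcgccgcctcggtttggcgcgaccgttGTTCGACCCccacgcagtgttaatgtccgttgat

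Regions at snoRNA and snRNA genes stood high in the ranking. The optimal list holds the 4205 pooled regions of highest signal, and a region in it is called a peak here. Of the 253 regions, 136 were peaks (53.8%, 95% exact binomial interval 47.4 to 60), beside 14.0% of all pooled regions. Their median rank was 3198 (quartiles 955 and 11568), and the median of all regions was 15000. The authors' signal had a median of 88.8 at these regions and 20.8 over all regions. No source used here gives the scale of this signal, and it is used only to order regions within a list. Shares and intervals cover counting of regions or genes only, since depth is unknown.

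The regions made up 6 of the top 100 pooled regions (6%), 64 of the top 1000 (6.4%) and 136 of the top 4205 (3.23%). Among the top 100, 4 lay at snRNA and 2 at snoRNA genes, and among the top 1000 these numbers were 19 and 45. The snRNA peaks were the more numerous in the top 100 and the snoRNA peaks in the top 1000.

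**Figure D1:**
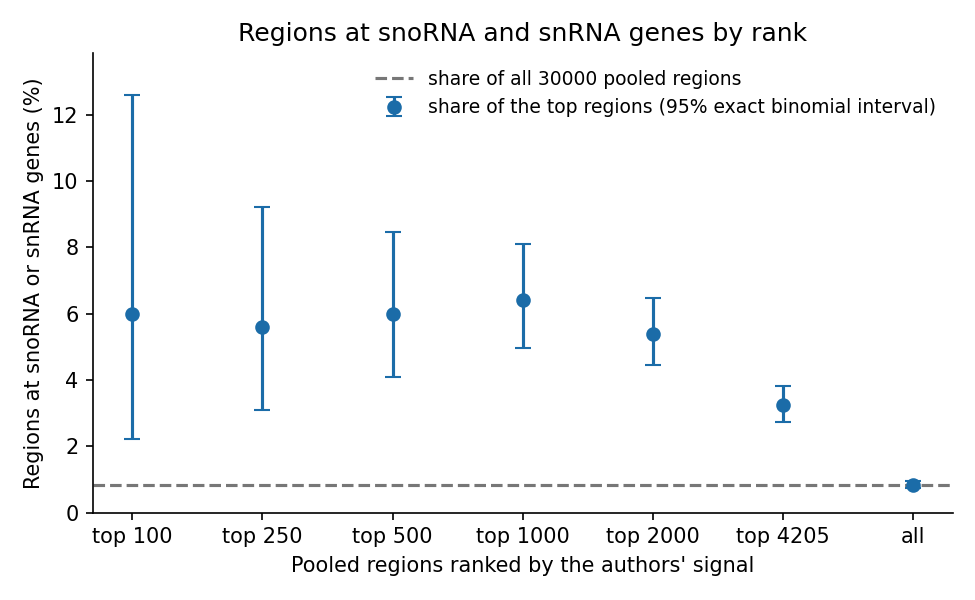
Share of regions at snoRNA or snRNA genes (vertical axis, percent) among the top-ranked pooled regions (horizontal axis). Points are shares with 95% exact binomial intervals, and the dashed line is the share of 0.843% over all 30000 regions. The share was 6% in the top 100, 6.4% in the top 1000 and 3.23% in the top 4205.

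Many of these regions also lay near protein-coding genes, so they were set beside regions in the same kind of place. Inside protein-coding promoter windows (1000 bp upstream to 200 bp downstream of a start site), 54 of 91 regions at snoRNA or snRNA genes were peaks (59.3%), and 21.5% of all regions there were. Outside these windows the counts were 82 of 162 (50.6%), beside 9.71% of all regions. In introns outside promoter windows 44 of 76 were peaks (57.9%), beside 9.78%. The share was thus above that of all regions in each kind of place. The share of 53.8% stood beside 242 of 448 regions near tRNA genes (54%), which are also short non-coding genes. The best rank was 13 at snoRNA and snRNA genes and 351 near tRNA genes. Only 1 region of the 253 was near a tRNA gene, at sls-2.9, so the classes share almost no region.

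The highest regions stood high in both replicates. At sls-2.4, an SL2 RNA gene on chromosome I with the highest peak at any snoRNA or snRNA gene, the signal was 355 in replicate 1 and 534 in replicate 2, at rank 16 in both lists. At Y53F4B.47, the highest at a snoRNA gene, the signal was 278 (rank 39) in replicate 1 and 562 (rank 13) in replicate 2. Of the 136 peaks, 130 overlapped one of the top 4205 regions of both replicates (95.6%, interval 90.6 to 98.4), and 80.3% of all peaks did. Part of this overlap is built in, because the peaks were chosen from both replicates, and these peaks rank above the average peak. When overlap had to cover 50% of both regions, the count was 82 of 136 (60.3%). The peak at 1 intronic snoRNA gene overlapped a top region of neither replicate.

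**Figure D2:**
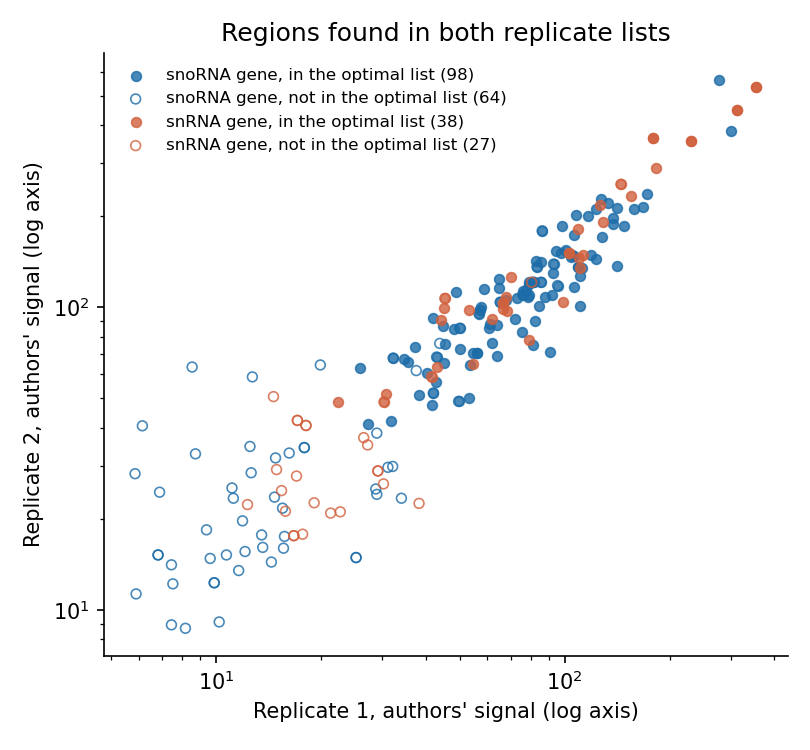
Authors' signal of each region's best overlapping region in replicate 1 (horizontal) and replicate 2 (vertical), both on log axes, for the 227 regions with a counterpart in both lists. Filled points are the 98 peaks at snoRNA genes (blue) and 38 at snRNA genes (orange), and open points are regions outside the optimal list. Peaks sit toward the upper right, and some open points lie there too. Such an open point takes its values from a strong replicate region that it overlaps, although its own pooled signal was low.

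The families of spliced leader RNA genes stood apart from each other. Of 18 sls-2 genes, which encode SL2 RNA, 13 had a peak (72.2%, interval 46.5 to 90.3), with a highest signal per gene between 96.2 and 894. After sls-2.4 (signal 894, rank 13) came sls-2.1 with 751 (rank 27), sls-2.2 with 581 (rank 68) and sls-2.8 with 545 (rank 89). Their summits lay 47, 43, 36 and 43 bp before the 5′ end. In the sequence of sls-2.1 above, the summit fell on the last base of TGTCTG. The genes sls-2.10, sls-2.12 and sls-2.15 had regions below the optimal list, and sls-2.6 and sls-2.11 had none.

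In contrast, none of the 12 sls-1 genes, which encode SL1 RNA, had a peak (interval 0 to 26.5%). No pooled region of any rank lay in the array that holds them on chromosome V (17118154 to 17132107). The nearest regions were 10098 bp before it and 4803 bp after it. All 12 sls-1 genes have an identical copy in the genome, and no sls-2 gene has one. No source used here says how reads from identical copies were placed, and its part in the difference between the families was not tested. Among all snRNA genes, 46 of 129 have an identical copy.

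Over all snRNA genes, spliced leader genes included, the share with a peak was below that of the sls-2 genes. It was 31 of 129 (24%, interval 16.9 to 32.3), beside 42.6% of 612 tRNA genes counted in the same way. Both sup genes had a peak, which encode U1 snRNA and were found as suppressors of splice site mutations. Their whole family, grouped by sequence identity, holds 13 snRNA genes. Of these 13, sup genes included, 7 had a region of any rank and 4 had a peak (30.8%, interval 9.09 to 61.4). The summit at sup-6, inside an intron of F58G1.7, had a signal of 488 (rank 122, with 183 in replicate 1 and 289 in replicate 2). The summit at sup-39 had 255 (rank 582), and it also lies in the nested gene mir-1831, which the annotation classes as snRNA. Among 12 smy genes, whose SmY RNAs bind Sm proteins in nematodes, smy-2 (200) and smy-3 (99.8) had a peak. The annotation classes both of these as snoRNA genes, and none of the 10 smy genes that it classes as snRNA had a peak.

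Several snRNA genes share a sequence name in the annotation because their copies are alike. Of 14 genes named R07E5.16, 3 had a region at all, and each of these 3 genes had a peak. The highest, in an intron of the dynein heavy chain gene dhc-4, had a signal of 403 (145 in replicate 1 and 255 in replicate 2). Peaks were also found at 1 of 3 genes named F54D8.7 (324), 1 of 2 named T11F9.15 (399), 1 of 2 named F38E11.11 (351) and 1 of 7 named C47F8.9 (210). The T11F9.15 summit lay in the promoter window of snr-4, which encodes an Sm protein, so both genes share that peak. Every gene of these repeated names has an identical copy elsewhere.

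At snoRNA genes, 94 of 346 had a peak (27.2%, interval 22.5 to 32.2), beside 42.6% of tRNA genes. Independent genes, which overlap no protein-coding gene, had one in 46 of 124 cases (37.1%, interval 28.6 to 46.2). Intronic genes on the host's strand had one in 32 of 150 cases (21.3%, interval 15.1 to 28.8). The difference was not tested, and the intervals overlap slightly. Protein-coding promoter windows held 22 of 48 peaks at independent (45.8%) and 10 of 33 at intronic snoRNA genes (30.3%). The part of these windows in the difference was not tested. Genes in an intron of the opposite strand had a peak in 11 of 28 cases (39.3%), and genes overlapping an exon in 5 of 44 (11.4%). Per region, 48 of 75 regions at independent (64%) and 33 of 65 at intronic snoRNA genes (50.8%) were peaks. The signal of genes that had a peak was alike, with a median of 188 at independent and 190 at intronic genes.

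**Figure D3:**
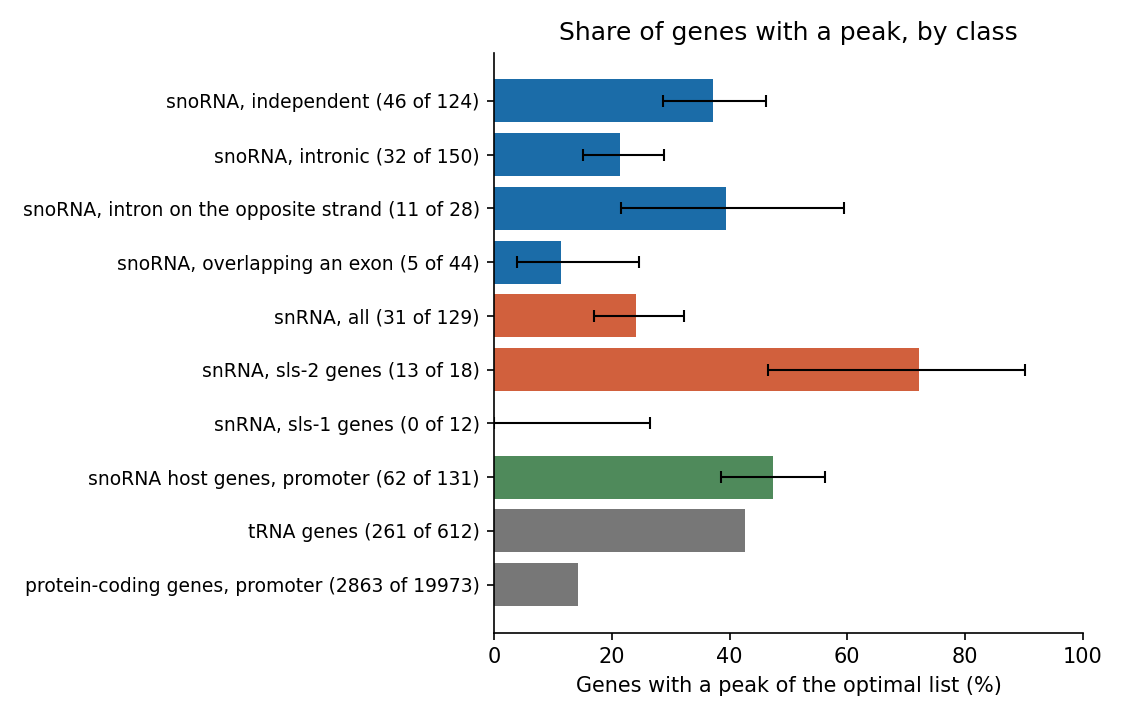
Percent of genes with a peak of the optimal list (horizontal axis) by class, with 95% exact binomial intervals. Peaks lie within 150 bp of the gene, or in the promoter window for host genes and protein-coding genes. The sls-2 genes had the highest share (72.2%) and the sls-1 genes had none. Grey bars give tRNA genes (42.6%) and all protein-coding genes (14.3%).

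The highest peaks at independent snoRNA genes were those of Y53F4B.47 (signal 846, rank 18) and F59C6.15 (695, rank 35). They stood well above the next, T26A8.6 (380), Y67A10A.14 (358) and F09G2.14 (349), and F25H2.15 (341) and Y74C9A.6 (337) came after these. The Y53F4B.47 summit lay 70 bp before its gene and inside the promoter window of cmtr-1. The T26A8.6 summit lay 40 bp before its gene and in no protein-coding promoter window. Its signal was 168 in replicate 1 and 215 in replicate 2.

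The highest peaks at intronic snoRNA genes were those of F01D5.12 in F01D5.10 (signal 408, rank 188), C08D8.3 in C08D8.1 (372), C16D9.11 in rol-3 (359), ZK994.7 in pxn-1 (327) and Y37E3.20 in pcyt-2.1 (307). In replicate 1 their signals were 172, 158, 133, 138 and 128. In replicate 2 they were 236, 212, 221, 189 and 171, so the order differed little. Of these summits, only that of Y37E3.20 lay in the promoter window of its host. Over all 33 peaks at intronic snoRNA genes, 7 did, and 24 lay within 75 bp before the snoRNA.

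Summits gathered just before the genes. The median of the 136 summits was 22 bp before the annotated 5′ end, and 87 lay before it (64%), 81 of them within 75 bp. A further 32 lay inside the gene and 17 after it. No summit of a peak lay more than 109 bp from its gene, although 150 bp were allowed. In steps of 50 bp, snoRNA genes had 43 summits in the step next to the 5′ end and 25 in the one before, and 1 in the step beyond. snRNA genes had 15 and 4, and then none. A smaller group of 8 summits stood 150 to 199 bp after the 5′ end of snRNA genes, past the end of most of them.

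**Figure D4:**
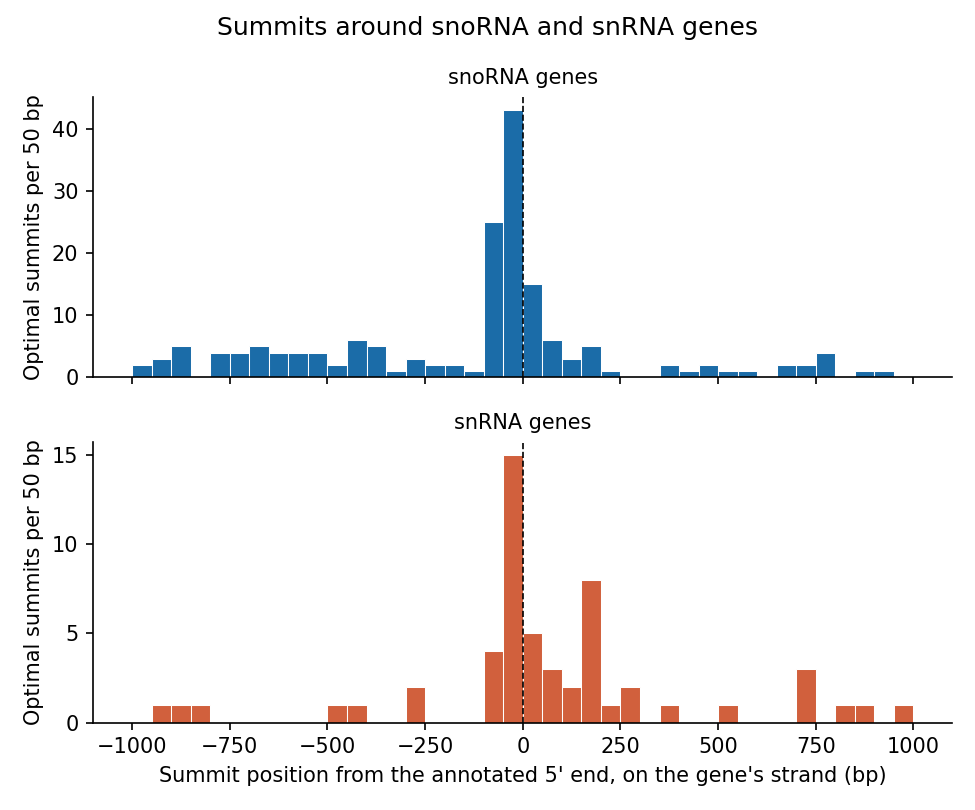
Number of optimal summits per 50 bp (vertical axis) by position from the annotated 5′ end on the gene's strand (horizontal axis, bp), for snoRNA genes (top) and snRNA genes (bottom). The dashed line is the 5′ end. The highest bar in both panels is the 50 bp just before it, with 43 summits at snoRNA and 15 at snRNA genes.

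This smaller group came from genes with a pair of peaks. At 13 genes there were 2 peaks, 199 to 226 bp apart (median 202), and at 11 of them the pair flanked the gene. At sls-2.4 the summit before the gene had a signal of 894 and the one after it 400. At sls-2.2 the values were 581 and 409, at T11F9.15 399 and 269, and at C08D8.3 372 and 164. The first peak was the higher in 12 of 13 pairs, T08G5.11 being the exception. The smallest spacing of any summits in the optimal list was also 199 bp, so the spacing stands at a limit of the list. A peak had another within 250 bp in 20.6% of cases at snoRNA and snRNA genes and in 6.52% over the optimal list. At the sls-2 pairs both summits matched 1 region in each replicate, so their replicate values are the same.

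The upstream words shown above were counted in the 100 bases before every gene, on the gene's strand. AACCCG was present at 33 of 125 genes with a peak (26.4%), 37 of 350 genes with none (10.6%) and 0.866% of 29314 protein-coding start sites. TGTCNG was present at 56 (44.8%), 82 (23.4%) and 5.11%. At the genes with a peak, the median first base was 59 bases before the gene for AACCCG and 48 for TGTCNG, with quartiles 60 to 57 and 56 to 47. Of the 45 genes with both words 28 had a peak (62.2%), as did 33 of 118 with exactly 1 of them (28%) and 64 of 312 with neither (20.5%). Of intronic snoRNA genes with both, 7 of 8 had a peak, and of those with neither 22 of 128 (17.2%). Of independent snoRNA genes with both, 6 of 12 had a peak (50%), and of those with neither 33 of 96 (34.4%). AACCCG came first when 6-base words were ordered by how many genes with a peak had them upstream. Both words were thus picked with these same genes in view, so the shares describe these genes and are no independent support. A match describes letters and does not show that a factor bound there.

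The word TATATAA stood upstream of 5 of 31 snRNA genes with a peak (16.1%), 13 of 98 with none (13.3%) and 2.39% of protein-coding start sites. Over the 6 matches at snoRNA and snRNA genes with a peak, TATATAA began at a median of 31 bases before the gene, as at R07E5.16 and F54D8.7. In the family of 23 snRNA genes that holds both names, grouped by at least 80% identity, 15 genes had the word. In this family 4 genes had a peak, and all 4 had the word. Over all snRNA genes, but not within this family, the share with TATATAA was much the same with and without a peak.

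GTTCGANNC stood upstream of 17 snoRNA genes, and 15 of these had a peak (88.2%, interval 63.6 to 98.5). The word stood upstream of 16% of snoRNA genes with a peak, 0.794% of those with none and 0.232% of protein-coding start sites. GTTCGANNC was not among the motifs planned beforehand, so these shares describe these same genes and are no independent support. The 2 without a peak, T23G5.7 and Y59E1B.14, had no region at all. No annotated tRNA gene lay within 150 bp upstream of any of the 17 on the same strand. F55A11.10, an intronic gene, had a signal of 260 (101 in replicate 1 and 154 in replicate 2). F30H5.4, an independent gene, had 199, and M106.6, in an intron of the condensin gene mix-1, had 197. At the 15 genes with a peak, the word began at a median of 15 bases before the gene, nearer than the other words.

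Around the summits themselves (75 bp on each side, both strands), the letters of Smad sites were compared with those at other peaks. GTCTG was present in 39 of 136 windows at snoRNA and snRNA genes (28.7%) and in 24.1% of 4069 windows at other peaks. For CAGACA the shares were 13.2% and 12.7%. GTCTG can lie inside TGTCNG, and at 9 of the 39 the gene had TGTCTG upstream. GGCGC, another Smad motif, was present in 35.3% and 23.1%, with 44.9% at snoRNA and 10.5% at snRNA genes. GAGAGA (20.6% and 32.1%) and CACGTG (2.94% and 9.66%) were less frequent than at other peaks, and TATAAA (14.7% and 8.97%) was more frequent. The windows had a median GC content of 50%, and those of all optimal peaks 43%. The part of GC content in these shares was not tested.

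The host genes of intronic snoRNAs often had a peak at their own promoter. Of 131 hosts, 62 did (47.3%, interval 38.5 to 56.2), beside 14.3% of all protein-coding genes. All 13 ribosomal protein hosts had one, from rpl-26 (signal 72.8) and rpl-2 (75.8) to rpl-15 (1496). None of their 19 snoRNAs had a peak. The other 118 hosts had a promoter peak in 49 cases (41.5%), and 32 of their 132 snoRNAs had a peak (24.2%), with 1 snoRNA counted at both of its hosts. Hosts with a peak at the snoRNA had a promoter peak in 13 of 32 cases (40.6%), and hosts with none in 49 of 99 (49.5%). At 5 of the 13, the only summit in the promoter window was that of the snoRNA peak. A separate promoter peak was thus found at 8 of 32 hosts with a snoRNA peak (25%, interval 11.5 to 43.4).

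Among the hosts of the highest snoRNA peaks, values at the promoter varied. F01D5.10, C08D8.1 and pxn-1 had no promoter peak. rol-3 had one with a signal of 72.3, below the 359 at its snoRNA. pcyt-2.1 had 307 at both, since that summit lay in its promoter window. All 16 hosts of more than 1 snoRNA had no snoRNA peak. Of these, nol-56 with 4 snoRNAs (promoter 218), rpl-6 with 3 (307) and top-2 with 3 (281) had a promoter peak, as had cdc-48.1 (1353) and eef-1G (443).

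Peaks were also counted at promoters of genes whose proteins work with these RNAs. Of 8 core proteins of snoRNA particles, 7 had a promoter peak, beside 14.3% of all protein-coding genes. They were fib-1, which encodes the methyltransferase fibrillarin (signal 380), nol-58 (234), nola-3 (222), nol-56 (218), Y48A6B.3 (207), snu-13 (165) and dkc-1, which encodes the pseudouridine synthase dyskerin (76.8). garr-1 had none. Of 7 Sm proteins, the ring that binds snRNAs, 5 had a promoter peak, snr-4 (399), snr-1 (297), snr-3 (176), snr-6 (120) and snr-2 (100). The snr-4 peak is the one that it shares with the snRNA gene T11F9.15.

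The Integrator complex cuts the 3′ ends of snRNA transcripts. Of its 11 genes, 8 had a promoter peak, ints-4 (573), ints-1 (135), ints-9 (123), ints-2 (122), ints-8 (118), ints-5 (113), ints-11 (111) and ints-6 (81.1). The SNAP complex binds the snRNA promoter element, and 1 of its 7 genes found in the annotation had a promoter peak, snpc-3.4 (142). The lists are short, and the interval for the SNAP complex (0.361% to 57.9%) holds the share of all genes.

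The snoRNA types could be told from the sequence only in part. Among 14 snoRNA genes with C/D box letters at both ends, 8 had a peak (57.1%, interval 28.9 to 82.3), and among 58 with ACA 3 bases from the end, 17 did (29.3%). The remaining 274 had neither and 69 of them had a peak (25.2%). The sets differed in place. With C/D letters, 5 of 5 independent and 2 of 6 intronic genes had a peak. With ACA, 6 of 9 independent and 10 of 45 intronic genes did. The part of place in these shares was not tested. Genes with a peak had a median length of 103 bp, and those with none 133 bp. On the X chromosome 4 of 36 snoRNA and snRNA genes had a peak (interval 3.11% to 26.1%), and the other chromosomes ranged between 23 of 100 on IV (23%) and 32 of 87 on II (36.8%).

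At the limits of the choice, the 3 regions farthest inside 150 bp were at F48A9.6 (148 bp, signal 11.8), R11A5.8 (146 bp, 17.3) and F37A8.7 (146 bp, 61.4), and none was a peak. The 3 nearest outside were at C02F5.15 (signal 126), C18A3.12 (156 bp, 37.5) and C50C3.13 (156 bp, 11.5), and the first was a peak. The lowest peaks were at R07G3.16 (75.1), ZK897.4 (71.8) and F25H5.9 (70.9). The highest regions below the optimal list were at F08H9.10 (67.9), M03D4.78 (66.6) and T14B4.10 (66.1). Of 475 genes, 125 had a peak (26.3%), 212 had a region of any rank and 263 had none.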

How the data were processed

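Per the labels and the listing deposited with each sample, SMA-3 GFP ChIP-seq of 2 biological replicates gave a list of 30000 regions per replicate and a pooled list of 30000, called with 1 shared control alignment, and an optimal list from an irreproducible discovery rate procedure. The authors' signal value per region (column 7 of the deposited lists) was used to rank regions within a list, and the summit was the start plus column 10. The optimal list was identical to the 4205 pooled regions of highest signal. Aligner, caller, thresholds and depth: not given in the sources used here. Lists on ce11 were joined to genes of Ensembl release 115 (WBcel235) and the RefSeq sequence of that assembly. Each summit went to its nearest snoRNA or snRNA gene within 150 bp. A gene was intronic if it lay within an intron of a protein-coding gene on its strand, and independent if it overlapped none. C/D letters were TGATGA in the first 20 bases and CTGA in the last 20. Replicate regions matched by an overlap of at least 1 bp. Intervals are 95% Clopper-Pearson intervals. The assignment was tested on simulated data. Named are the 20 highest peaks, the 5 highest at independent and at intronic snoRNA genes, the highest of each named snRNA family, hosts of the 5 highest peaks, regions next to each threshold and listed proteins with a promoter peak; others were chosen after their values were seen. The members and lists were chosen with earlier results of these data known. Python 3.11.15 was used with pandas 2.3.3, numpy 2.4.6, scipy 1.17.1, Biopython 1.88 and matplotlib 3.10.9.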

Additional observations from a re-analysis of the deposited data

How the results depend on the processing

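The share of regions that were peaks (53.8%) was 63.2% within 50 bp of a gene, 65.2% by distance to the 5′ end and 43.9% with only the 2102 highest regions as peaks. The median rank (3198) was 1972 within 50 bp, 2465 within 100 bp, 4524 within 300 bp, 1847 by distance to the 5′ end and 2593 with the highest region of each gene only, an alternative chosen after seeing the data. It was 2558 without replicate 1 and 3382 without replicate 2. Independent snoRNA genes with a peak (37.1%) came to 24.2% within 50 bp. The share of peaks found in both replicates (95.6%) was 100% among the 2102 highest regions and 60.3% with a reciprocal overlap of 50%. The median summit position (-22) was -17 within 50 bp, -27.5 by distance to the 5′ end and -27 among the 2102 highest. Hosts with a promoter peak (47.3%) came to 32.1% with the 2102 highest. The cause of these moves was not tested. Without either replicate, the share of peaks was 53.1% to 56%, that at independent snoRNA genes 36.3% to 37.1%, at intronic ones 20% to 22%, at snRNA genes 22.5% to 24%, at host promoters 44.3% to 46.6%, and the median position -25 to -20. Leaving out genes with an identical copy, also chosen after seeing the data, gave 53.9% of regions and 27.7% of snRNA genes. No paired analysis was possible because the series holds 1 group and no test was made.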
